A study of Mus musculus with 9 samples.

Results

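Of the 6462 genes in the deposited FPKM table, 6 were followed here: the zinc finger factor genes Klf2 and Klf6 and the immediate early response genes Ier2, Ier3, Ier5 and Ier5l. All 6 were present in the table and all 6 passed the filter on level. They were chosen by gene name with their levels in these libraries known, Klf2 and Ier5l because they were lower after LPS and the other genes because they were higher. Their differences from untreated cells are therefore given as a description, without a test. RNA was sequenced from BV2, a mouse microglial cell line made permanent by oncogene-carrying retrovirus, in 3 groups of 3 libraries: cells without treatment (0 h), cells given LPS at 200 ng/ml for 1 h, and cells given the same dose for 12 h. LPS, or lipopolysaccharide, comes from the bacterial cell wall and is sensed through TLR4. As no untreated cells accompanied the later times, the effect of LPS and that of time in culture cannot be told apart.

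KLF2 and KLF6 are Krüppel-like factors, transcription factors that bind GC-rich DNA through zinc fingers at their carboxyl end. KLF2 holds myeloid and endothelial cells in a quiescent state and restrains genes driven by NF-κB, whereas KLF6 is known in macrophages as a factor that works with NF-κB at inflammatory genes. IER genes belong to the immediate early class, whose transcription starts within minutes of a stimulus without new protein synthesis and often stops soon afterwards. IER2 is a nuclear protein that takes part in transcriptional control, IER3 (also called IEX-1) modulates cell survival and ERK signaling, IER5 works with the phosphatase PP2A on the heat shock factor HSF1, and IER5L is its little-studied relative.

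The 6 genes lie on 5 chromosomes (GRCm38, GENCODE M21). Klf2 spans bases 72319033 to 72321656 of chromosome 8 on the plus strand, and its coding transcript has 3 exons. Ier2 lies on the same chromosome at 84661331 to 84662852 on the minus strand and has 1 exon. Klf6 covers 5861482 to 5870394 of chromosome 13 on the plus strand with 4 exons in its longest coding transcript. Ier3 lies at 35821684 to 35822923 of chromosome 17 on the plus strand with 2 exons, Ier5 at 155096361 to 155099636 of chromosome 1 on the minus strand with 1 exon, and Ier5l at 30471537 to 30474219 of chromosome 2 on the minus strand with 1 exon. No other annotated gene overlaps any of the 6. The build behind the deposited values is uncertain, and no position was used in computing a level.

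The sequences upstream of 5 of these genes are shown because related genes stood on opposite sides of their untreated levels; each is the 250 bases before the RefSeq transcript start in GRCm38.p6, read 5′ to 3′ on the strand of the gene. Capitals mark matches on either strand to a MEF2 pattern (CTA and TAG with any 4 bases between), to an NF-κB pattern (GGNNTTTCC), to the core of the cAMP response element (TGACG) and to the CCAAT box bound by NF-Y. No sequence is given for Ier2.
Klf2, chr8:72318812-72319061, plus strand: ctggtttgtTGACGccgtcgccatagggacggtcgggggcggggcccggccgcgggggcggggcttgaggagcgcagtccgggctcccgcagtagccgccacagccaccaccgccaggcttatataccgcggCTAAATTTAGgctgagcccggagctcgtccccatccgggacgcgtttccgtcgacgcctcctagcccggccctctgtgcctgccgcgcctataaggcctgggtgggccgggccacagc
Ier5l, chr2:30474200-30474449, minus strand: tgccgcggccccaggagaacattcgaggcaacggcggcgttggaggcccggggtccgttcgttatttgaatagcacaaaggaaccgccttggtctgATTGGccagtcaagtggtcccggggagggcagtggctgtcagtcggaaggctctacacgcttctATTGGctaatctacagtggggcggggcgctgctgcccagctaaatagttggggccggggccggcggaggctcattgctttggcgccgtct
Klf6, chr13:5861239-5861488, plus strand: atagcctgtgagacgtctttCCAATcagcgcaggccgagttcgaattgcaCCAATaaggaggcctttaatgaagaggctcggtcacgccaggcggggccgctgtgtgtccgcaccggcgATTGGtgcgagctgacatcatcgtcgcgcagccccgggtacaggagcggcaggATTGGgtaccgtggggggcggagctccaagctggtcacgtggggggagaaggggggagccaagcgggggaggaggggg
Ier3, chr17:35821463-35821712, plus strand: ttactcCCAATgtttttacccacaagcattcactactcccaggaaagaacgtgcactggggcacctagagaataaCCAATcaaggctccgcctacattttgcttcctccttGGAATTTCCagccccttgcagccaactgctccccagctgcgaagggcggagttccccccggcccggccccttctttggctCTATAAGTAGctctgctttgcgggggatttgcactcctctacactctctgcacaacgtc
Ier5, chr1:155099637-155099886, minus strand: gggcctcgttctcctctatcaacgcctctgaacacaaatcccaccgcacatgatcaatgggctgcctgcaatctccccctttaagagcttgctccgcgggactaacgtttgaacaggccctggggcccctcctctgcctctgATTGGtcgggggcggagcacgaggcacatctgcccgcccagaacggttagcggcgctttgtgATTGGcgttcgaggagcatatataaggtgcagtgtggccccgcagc

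The MEF2 pattern stood at bases -118 to -109 of Klf2, as CTAAATTTAG. MEF2 factors, activated by the kinase ERK5, are known to bind and activate the Klf2 promoter. The same pattern matched Ier3 at -59 to -50, where it overlaps a TATAA match, and it was present in 3.20% of all 32851 upstream windows of this length. The NF-κB pattern matched Ier3 at -139 to -131, as GGAATTTCC, and none of the other 4 windows; 4.93% of all windows held it. CCAAT boxes numbered 4 in Klf6 and 2 each in Ier3, Ier5 and Ier5l, with 0 in Klf2, against a match in 33.85% of all windows. GGGCGG (GC box) occurred in all 5 windows, with 2 matches each in Klf2 and Ier5, and in 32.7% of all windows. TATAA occurred in Klf2 (2 matches), Ier3 (1) and Ier5 (1), and in 22.8% of all windows; TGACG occurred in Klf2 only among these 5 and in 17.8% of all windows. A CArG box, the site of serum response factor, and the full cAMP response element TGACGTCA were not found in these 5 windows, and 1.47% and 1.55% of all windows held them. A match is a description of letters in this window and not evidence of binding.

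**Figure D1:**
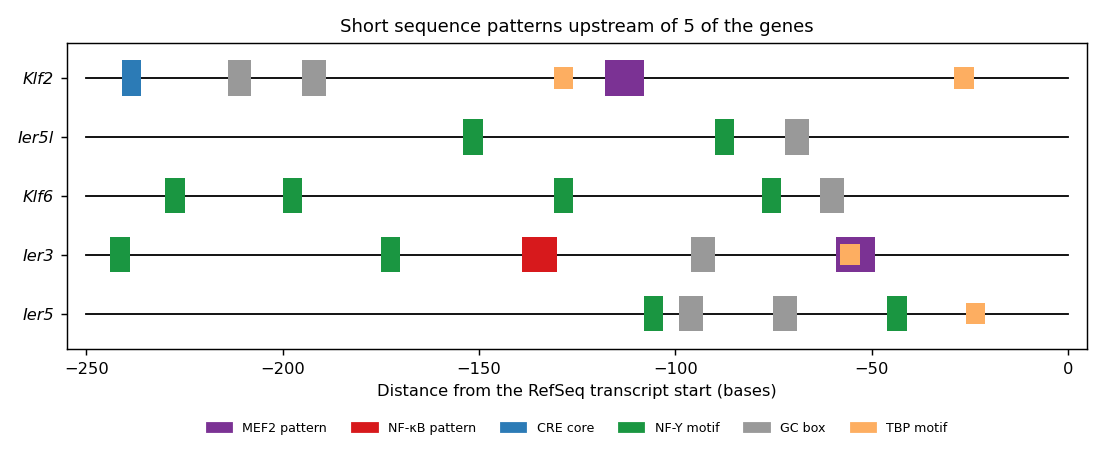
Positions of short sequence patterns in the 250 bases before the RefSeq transcript start of 5 genes, with distance from the start in bases on the horizontal axis; boxes are matches on either strand, NF-Y motif stands for the CCAAT box, TBP motif for TATAA and CRE core for TGACG. The MEF2 pattern of Klf2 lies at -118 to -109, and in Ier3 the TBP motif lies inside the MEF2 pattern.

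Summed over the table, FPKM per library ranged between 195872 and 198075 (untreated), 203515 and 205413 (1 h) and 223720 and 228207 (12 h). Libraries of 1 group correlated at 0.9981 to 0.9986 across genes and libraries of different groups at 0.9241 to 0.9698, where genes are not independent replicates. Exact depths are unknown; the smallest steps of low values in 32 genes with 1 transcript give a rough 20700000 fragments per library (quartiles 17000000 and 27500000). Of 11 microglia and macrophage markers, 7 were listed, and their sum was 1107 to 1196 FPKM without LPS, 1060 to 1093 after 1 h and 949 to 994 after 12 h. The members of this sum differed: mean Tyrobp was 559.8 FPKM in untreated cells, 545.1 at 1 h and 412.3 at 12 h, Cd68 was 390.6, 367.8 and 390.9, Itgam was 27.9, 21.6 and 70.3, and P2ry12 was 1.24, 0.979 and 0.220 in that order. Their part in the results below was not tested. None of 5 astrocyte or 5 neuron markers was listed. Of 5 oligodendrocyte markers only Olig2 was listed (at most 0.0841 FPKM in any library), and of 5 endothelial markers only Flt1 (15.2 to 21.8 FPKM). The table holds only genes with a deposited q-value of at most 0.0999 (a p-value adjusted for many tests), so a marker outside it was not analysed here.

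Klf2 had the lowest mean of the 6 genes in untreated cells and at 12 h. At 1 h the mean of Ier5l was slightly lower, 1.57 against 1.65 FPKM. Klf2 stood at 2.64, 2.99 and 3.38 FPKM in the 3 untreated libraries, at 1.33, 1.79 and 1.83 FPKM at 1 h, and at 1.13, 0.949 and 1.06 FPKM at 12 h. Each later group lay wholly below the earlier one, so the order from high to low was untreated, 1 h, 12 h. The mean at 1 h, 1.65 ± 0.276 FPKM, was 54.98% of the untreated mean of 3.00 ± 0.367 FPKM (SD, n = 3, as throughout). At 12 h the mean of 1.04 ± 0.0891 FPKM was 34.7% of the untreated mean. On the log2(FPKM + 1) scale, which shrinks differences at such low levels, these were -0.60 (SE 0.084) and -0.97 (SE 0.084). Between the treated groups Klf2 fell further, by 0.37 at 12 h relative to 1 h (limma, adjusted p = 0.000837). At the rough depth these means rest on about 115 fragments in an untreated library, 63 at 1 h and 40 at 12 h, the smallest numbers among the 6 genes. In bulk RNA, fewer cells with the transcript and less transcript per cell cannot be told apart, here and for every gene below.

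Klf6, the relative of Klf2, stood at 24.0, 24.6 and 23.4 FPKM in untreated libraries, at 80.6, 79.4 and 78.7 FPKM at 1 h, and at 26.6, 27.3 and 29.1 FPKM at 12 h. The 1 h libraries stood far above the other 6, and the 12 h libraries lay just above the untreated ones without overlap. Mean levels were 79.6 ± 1.01 FPKM at 1 h against 24.0 ± 0.588 FPKM in untreated cells, a ratio of 3.32 and a log2 difference of 1.69 (SE 0.036). At 12 h the mean was 27.7 ± 1.28 FPKM, 1.15 times the untreated mean, with a log2 difference of 0.20 (SE 0.036). Only 6.59% of the early excess in FPKM was present at 12 h (5.32% to 7.57% when any 1 library was left out). Klf6 fell by 1.49 at 12 h relative to 1 h (adjusted p = 9.31e-14), the 50th lowest of the 5643 log2 differences in that comparison.

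Within each library the 2 KLF genes stood further apart after LPS. The ratio of Klf6 to Klf2 in FPKM was 9.07, 8.22 and 6.93 in untreated libraries, 60.5, 44.4 and 42.9 at 1 h, and 23.6, 28.8 and 27.5 at 12 h. Because both genes are read from the same library, a factor common to all genes of a library leaves this ratio as it is; quantile normalization, which is no such factor, puts Klf2 at -0.78 and Klf6 at 0.13 on the log2 scale at 12 h relative to untreated cells. The groups did not overlap. The ratio was highest at 1 h, when Klf6 peaked, and remained above untreated cells at 12 h. At 12 h Klf6 was close to its untreated level and Klf2 was at its lowest. As Klf6 was chosen as higher and Klf2 as lower after LPS, a ratio above that of untreated cells follows from the choice. It is given as a description only.

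Among the IER genes Ier3 was the most abundant in every library. It stood at 70.0, 67.8 and 71.2 FPKM in untreated libraries, at 364, 355 and 371 FPKM at 1 h, and at 288, 276 and 304 FPKM at 12 h. The untreated libraries were all low, and the 1 h libraries lay above the 12 h libraries without overlap. The 1 h mean of 363.5 ± 8.09 FPKM was 5.22 times the untreated mean of 69.7 ± 1.72 FPKM, and the 12 h mean of 289.5 ± 13.7 FPKM was 4.16 times it; the log2 differences were 2.37 (SE 0.034) and 2.04 (SE 0.034). Ranked by mean FPKM among the 6462 listed genes, Ier3 went to place 59 at 1 h and place 98 at 12 h, against place 529 in untreated cells. It kept 74.8% of its early excess at 12 h (72.4% to 77.0% when any 1 library was left out), and its level at 12 h fell by 0.33 relative to 1 h (adjusted p = 5.78e-07).

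Ier2 stood at 27.0, 26.5 and 24.6 FPKM in untreated libraries, at 52.6, 48.9 and 51.4 FPKM at 1 h, and at 35.3, 36.1 and 36.1 FPKM at 12 h. All 1 h libraries were above all 12 h libraries, which in turn were above all untreated ones. Its mean at 1 h, 50.9 ± 1.91 FPKM, was 1.95 times the untreated mean of 26.1 ± 1.27 FPKM, and its 12 h mean of 35.8 ± 0.438 FPKM was 1.37 times it. The log2 differences were 0.94 and 0.45 (SE 0.039 each), and 39.2% of the early excess was present at 12 h. Relative to 1 h, Ier2 fell by 0.50 at 12 h (adjusted p = 3.04e-08).

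Ier5 followed the same order at lower levels, with 19.2, 18.3 and 18.8 FPKM in untreated libraries, 44.1, 44.4 and 47.2 FPKM at 1 h, and 23.4, 22.9 and 24.8 FPKM at 12 h. The groups did not overlap. Mean levels were 45.3 ± 1.73 FPKM at 1 h and 23.7 ± 0.989 FPKM at 12 h, against 18.8 ± 0.431 FPKM in untreated cells. These means were 2.41 and 1.26 times the untreated one, with log2 differences of 1.23 and 0.32 (SE 0.039 each), and 18.6% of the early excess was present at 12 h. The level at 12 h fell by 0.91 relative to 1 h (adjusted p = 4.14e-11).

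Ier5l, the relative of Ier5, went the other way and then part of the way back. It stood at 11.3, 10.6 and 11.0 FPKM in untreated libraries, at 1.35, 1.45 and 1.90 FPKM at 1 h, and at 4.72, 4.02 and 4.71 FPKM at 12 h. The 1 h libraries were the lowest, the 12 h libraries were intermediate and the untreated ones the highest, with no overlap. The 1 h mean of 1.57 ± 0.294 FPKM was 14.3% of the untreated mean of 11.0 ± 0.386 FPKM. At 12 h the mean was 4.48 ± 0.399 FPKM, 40.8% of the untreated mean. The log2 difference of -2.23 (SE 0.075) at 1 h was the lowest of all 5643 tested genes in that comparison, and at 12 h it was -1.13 (SE 0.075), the 95th lowest. Ier5l rose by 1.10 at 12 h relative to 1 h (adjusted p = 6.49e-09), the only one of the 6 that was higher at 12 h than at 1 h. The 1 h level rests on about 87 fragments per library at the rough depth, against about 609 in untreated cells.

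**Figure D2:**
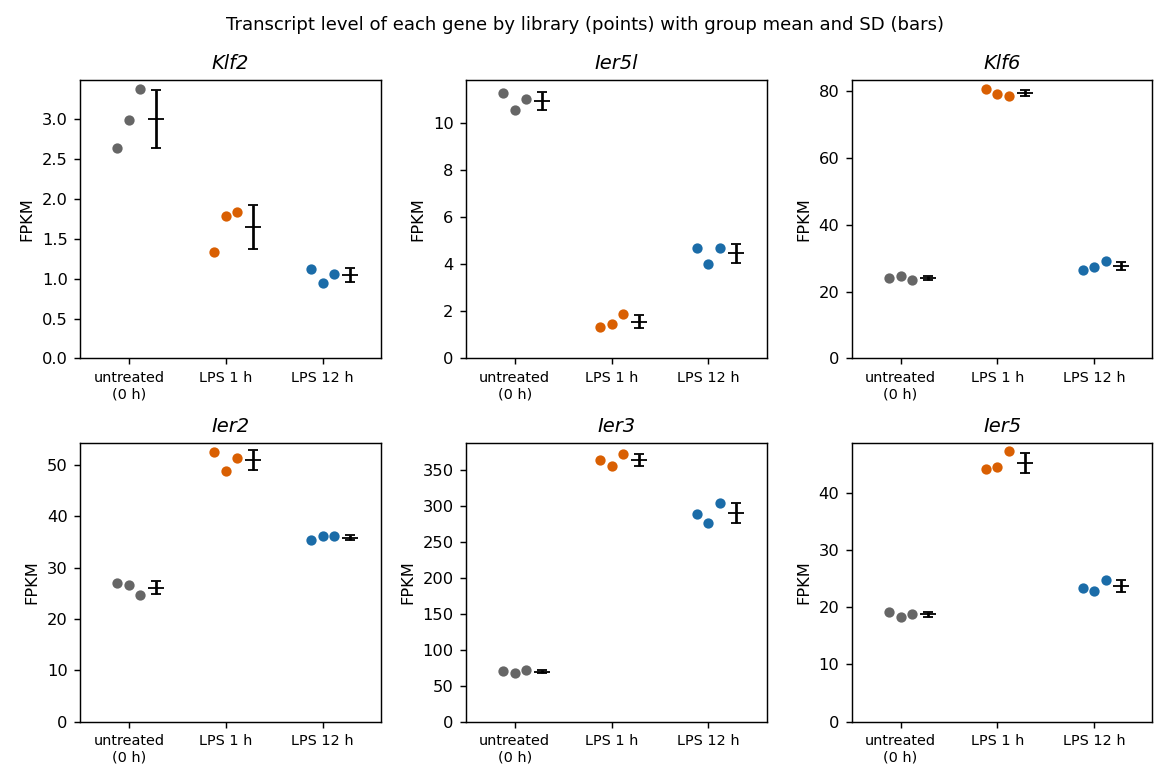
FPKM (vertical axes, from 0, a scale of its own for each gene) of the 6 genes in untreated cells and after 1 h and 12 h with LPS; points are libraries, and bars beside them give the group mean and SD (n = 3). Klf2 declines through both times, Ier5l is lowest at 1 h with a mean of 1.57 FPKM, and Klf6, Ier2, Ier3 and Ier5 are highest at 1 h.

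The ratio of Ier5 to Ier5l in FPKM was 1.70, 1.74 and 1.70 in untreated libraries, 32.5, 30.7 and 24.8 at 1 h, and 4.97, 5.68 and 5.27 at 12 h. The 2 relatives were thus within a factor of 2 of each other without LPS, stood furthest apart at 1 h, and were still further apart at 12 h than in untreated cells. Here too a wider ratio after LPS follows from the choice of the genes. For Ier3 over Ier2, both of which were higher after LPS, the mean ratio was 2.68 ± 0.183 in untreated cells, 7.14 ± 0.191 at 1 h and 8.08 ± 0.385 at 12 h. That ratio was lower in every untreated library (2.55 to 2.89) than in every treated one (6.92 to 8.42).

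**Figure D3:**
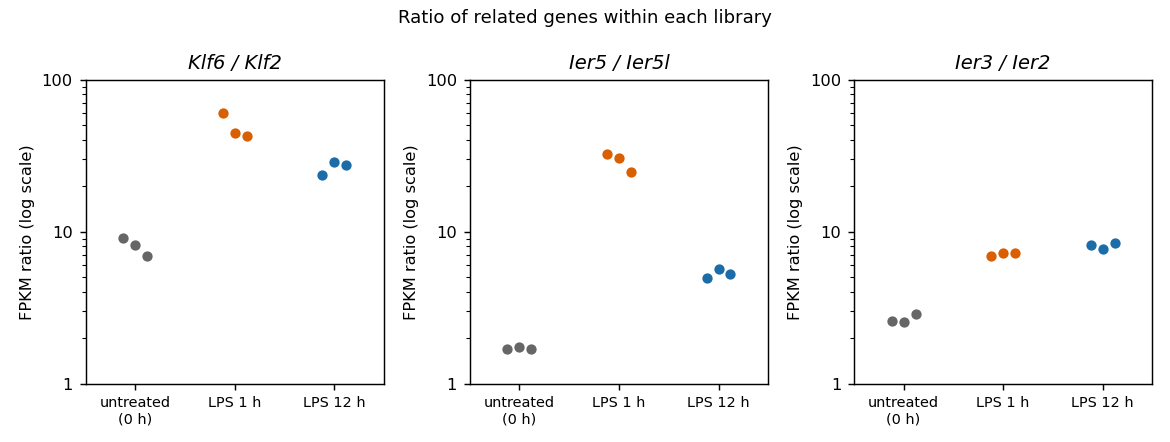
Ratio of FPKM between pairs of KLF or IER genes within each library (vertical axes, log scale), in untreated cells and after 1 h and 12 h with LPS. Points are libraries. Klf6 over Klf2 and Ier5 over Ier5l peak at 1 h, at means of 49.3 and 29.4, and are at means of 26.6 and 5.31 at 12 h, while Ier3 over Ier2 is at 7.14 and 8.08.

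The 4 genes with early peaks differed in how much of the peak was present at 12 h. The share of the early excess left at 12 h was 6.59% for Klf6, 18.6% for Ier5, 39.2% for Ier2 and 74.8% for Ier3. The ranges with any 1 library left out did not overlap between neighbours in this order: 5.32% to 7.57%, 16.5% to 20.15%, 37.4% to 40.6% and 72.4% to 77.0%. For Ier5l, 69.0% of the early deficit remained at 12 h, and for Klf2 the deficit at 12 h was 145% of that at 1 h. Between 12 h and 1 h all 6 genes passed the test, 5 of them lower at 12 h; over all 5643 genes tested, 85.5% passed in either direction, 41.9% higher and 43.6% lower, so passing is not particular to these genes. Against untreated cells 59.0% of the tested genes passed at 1 h (24.1% higher, 34.9% lower) and 81.7% at 12 h (41.1% higher, 40.6% lower); nothing is read from the 6 genes against these shares, since those differences chose them.

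AU-rich elements in 3′ untranslated regions, built from the pentamer ATTTA, bind decay factors such as ZFP36 and mark many short-lived transcripts. Counted in the longest coding transcript of each gene, Ier3 held 5 pentamers in 613 bases, or 8.16 per kb, more than 98.8% of the 5447 tested genes with such a region. The median over those genes was 1.41 per kb. Of the other genes Klf6 held 7 (2.25 per kb), Ier5l 3 (2.39 per kb), Ier5 2 (0.933 per kb), Klf2 1 (1.36 per kb) and Ier2 0 in 755 bases. The longer form TATTTAT occurred 4 times in Ier3, 2 times in Klf6 and 1 time in Klf2, and in 32.6% of the tested genes at least 1 time. The shares of the early excess left at 12 h were 74.8% for Ier3, 6.59% for Klf6, 18.6% for Ier5 and 39.2% for Ier2. The stability of these transcripts was not measured, and a link between these counts and the course of the genes was not tested. The sites below are shown with TATTTAT in capitals and 10 bases on each side, taken from GENCODE transcripts.
Ier3, from base 182 after the stop codon: gtctaattaaTATTTATgtatttatgt
Ier3, from base 232 after the stop codon: gtgtatgtaaTATTTATtctaacttat
Klf6, from base 1671 after the stop codon: acaccggctgTATTTATtatgtaacat
Klf2, from base 80 after the stop codon: aacagactgcTATTTATtggaccttag

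Genes with the most similar course were found by the Euclidean distance over the 9 libraries between values of log2(FPKM + 1) minus the untreated mean. They were picked by these values, so no test is given. Klf2 was nearest to Cd244 (distance 0.292), which encodes an immune receptor, Hspb7 (0.316), a small heat shock protein gene, and Tnfrsf14 (0.322), a receptor of the TNF receptor family, and 34 genes with an assigned name lay within 0.5. Cd244 stood at 3.20 FPKM in untreated cells, 1.65 at 1 h and 1.16 at 12 h, close to the levels of Klf2 itself. Klf6 had only 3 genes within 0.5: Kdm6b (0.283), a histone H3K27 demethylase gene, Trib1 (0.312), a pseudokinase gene, and Adamts1 (0.465), a secreted protease gene. Kdm6b stood at 2.18, 8.46 and 2.82 FPKM in the same order of groups.

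Ier5 lay closest of all to another gene. Its distance to Mcl1, which encodes an anti-apoptotic BCL2 family protein, was 0.084, followed by Bcl2l11 (0.147), which encodes the pro-apoptotic protein BIM, and Ptafr (0.163), the receptor for platelet-activating factor. Mcl1 stood at 146 FPKM in untreated cells, 343.6 at 1 h and 181.6 at 12 h. Ier2 was nearest to Filip1l (0.266), Ugcg (0.266), which makes glucosylceramide, and Fzd5 (0.268), a Wnt receptor gene. Among the 3 genes nearest to Ier3 were Phlda1 (0.401) and Clec4e (0.611), a receptor gene for microbial glycolipids. Clec4e stood at 11.2 FPKM in untreated cells, 65.2 at 1 h and 38.8 at 12 h. Ier5l had no gene within 0.5; the nearest were Ddit4 (0.898), an inhibitor of mTORC1, Ppp1r3b (1.425), a glycogen-targeting phosphatase subunit gene, and Bhlhe41 (1.512), a clock-related repressor gene. Ddit4 stood at 32.9, 7.04 and 20.6 FPKM in that order of groups. Among the 6 genes themselves the closest were Ier2 and Ier5 (0.56) and then Klf6 and Ier5 (0.84), while Klf2 and Ier5l, both lower after LPS, were 2.85 apart.

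Other members of the KLF family were split as well. Of 17 KLF genes 8 were listed and tested, and without Klf2 and Klf6 the remaining 6 comprised 3 that rose and 3 that fell at 1 h, and 2 that rose and 4 that fell at 12 h. Their median log2 difference was -0.02 at 1 h and -0.34 at 12 h, against -0.03 and 0.03 over all tested genes. Of all tested genes 24.1% rose and 34.9% fell at 1 h, and 41.1% rose and 40.6% fell at 12 h. Klf10, first described as an early gene induced by transforming growth factor β, had the largest difference: it fell to 1.44 FPKM at 1 h and 3.03 FPKM at 12 h, against 4.84 FPKM in untreated cells. The log2 differences of Klf10 were -1.26 after 1 h (adjusted p = 3.93e-10) and -0.54 after 12 h (adjusted p = 1.47e-06). Klf4, which shares many functions with Klf2, fell by 0.58 at 12 h (adjusted p = 9.61e-06), with 0.681 FPKM at 12 h and 1.52 FPKM in untreated cells. Its difference of -0.23 at 1 h passed (adjusted p = 0.0262), but not under quantile normalization (-0.06, adjusted p = 0.542) or when untreated library 1 or 2 was left out (adjusted p of 0.0551 and 0.0868) or 1 h library 1 or 2 (adjusted p of 0.11 and 0.109). Of the 3 tested SP genes, relatives of the KLF genes, all rose at 1 h, Sp1 by 0.19, Sp2 by 0.27 and Sp4 by 0.30. At 12 h Sp1 fell by 0.19 (adjusted p = 0.000121), while Sp2 (0.08, adjusted p = 0.182) and Sp4 (-0.06, adjusted p = 0.419) did not pass; under quantile normalization Sp2 (0.23) and Sp4 (0.15) passed as higher.

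Genes that KLF2 is known to activate in endothelium or lymphocytes were mostly lower. Of 8 such genes 6 were tested. At 1 h 5 of these fell, none rose and 1 did not pass, against 34.9% lower over all tested genes; at 12 h 4 fell and 2 rose, against 40.6% lower. Their median log2 difference was -0.43 at 1 h and -0.90 at 12 h. Klf4, already counted in the KLF family, is 1 of the 5 that fell at 1 h. Its 1 h call was lost under quantile normalization (-0.06, adjusted p = 0.542) and with some libraries left out, as given above. Pik3ip1, an inhibitor of PI3-kinase, fell to 1.40 FPKM at 1 h and 0.720 FPKM at 12 h, against 4.83 FPKM in untreated cells (log2 differences -1.28, adjusted p = 4.71e-10, and -1.76, adjusted p = 5.04e-12). S1pr1, a sphingosine-1-phosphate receptor gene that guides cell exit from tissues, fell by 0.47 after 1 h (adjusted p = 9.38e-06) and by 1.46 after 12 h (adjusted p = 1.24e-11). Thbd, which encodes the anticoagulant receptor thrombomodulin, fell by 1.33 early (adjusted p = 2.78e-08) and by 1.23 late (adjusted p = 1.83e-08). Cdkn1a, the cell cycle inhibitor p21, was level at 1 h (-0.01, adjusted p = 0.889) and rose by 0.67 at 12 h (adjusted p = 4.86e-08). The count of 2 that rose at 12 h was 1 without untreated library 1, and among genes averaging 5 FPKM or more the counts that fell were 1 at 1 h and 0 at 12 h.

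**Figure D4:**
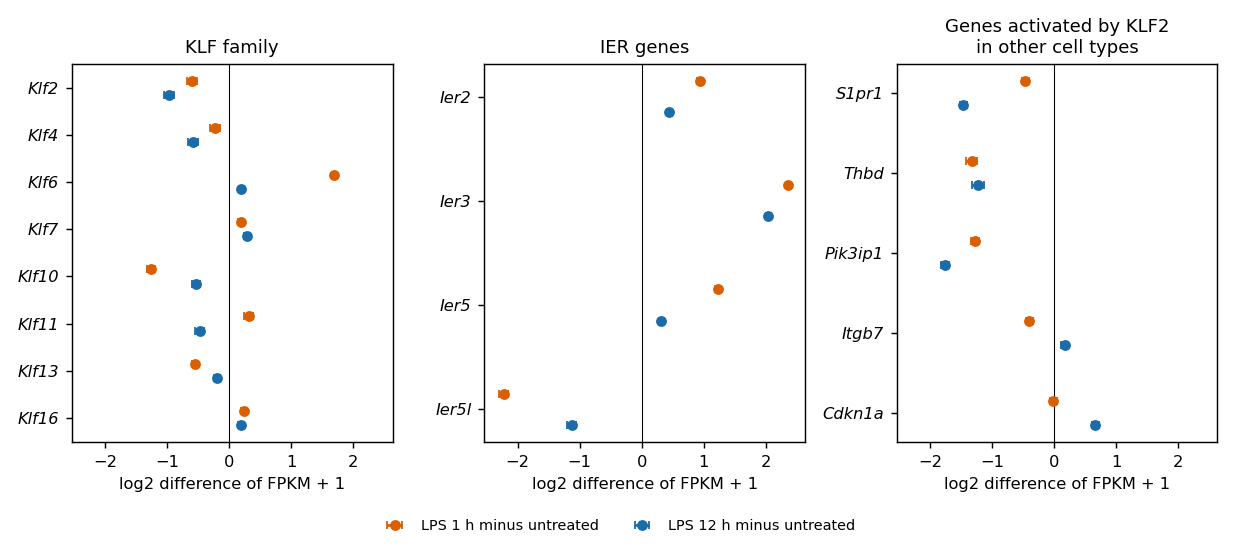
Log2 differences of FPKM + 1 from untreated cells (horizontal axes) after 1 h (upper point of each gene) and 12 h (lower point) with LPS, for the tested KLF genes, the 4 IER genes and the other tested genes known to be activated by KLF2; bars are standard errors. Klf6 is at 1.69 and 0.20, Klf2 at -0.60 and -0.97, and Ier5l at -2.23 and -1.13.

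Genes of the route through ERK5 and MEF2 that activates Klf2 were listed together with repressors of MEF2 factors such as Hdac5. Of 11 genes in this list, 7 were in the table and 6 were tested. At 1 h 1 rose, 1 fell and 4 did not pass, against 24.1% higher and 34.9% lower over all tested genes. The gene that fell was Hdac5 (-0.14, adjusted p = 0.0221). At 12 h 2 rose and 4 fell, against 41.1% and 40.6% over all tested genes. The median at 12 h was -0.25, with Hdac5 counted in, so it does not describe activators alone. At 1 h Mef2c, a MEF2 factor of myeloid cells, had a log2 difference of -0.02 (adjusted p = 0.683) and Mapk7, which encodes ERK5, one of 0.04 (adjusted p = 0.58); these are transcript levels and not activities, and their part in the level of Klf2 was not tested. Mef2c fell by 1.08 at 12 h, with 10.1 FPKM at 12 h and 22.6 FPKM in untreated cells (adjusted p = 6.78e-12), Hdac5, a repressor of MEF2 factors, fell by 0.78 (adjusted p = 1.74e-09), Mef2d fell by 0.34 (adjusted p = 9.23e-07) and Mapk7 rose by 0.33 (adjusted p = 6.41e-05). The 1 h calls were fragile: none rose without untreated library 1 or 3, 1 h library 1 or 3, or with the library number as a block, and none fell without untreated library 1 or 2 or 1 h library 2, while 2 fell without 1 h library 3. Of 3 ubiquitin ligases known to act on KLF2 protein, Wwp1 fell by 0.90 at 12 h (adjusted p = 1.04e-09) and Smurf1 rose by 0.43 (adjusted p = 2.95e-06), neither passing at 1 h (-0.05, adjusted p = 0.433, and -0.06, adjusted p = 0.357). Fbxw7, by contrast, rose by 0.20 after 1 h (adjusted p = 0.0087) and by 0.14 after 12 h (adjusted p = 0.0359), the last of which was lost when untreated library 1 or 3 was left out (adjusted p of 0.109 and 0.0636) or 12 h library 1 or 3 (adjusted p of 0.16 and 0.0524), and with the library number as a block (adjusted p = 0.0533).

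Serum response factor and its partners are the classic inducers of immediate early genes. Of 4 tested genes 1 rose and 1 fell at 1 h, and 1 rose and 3 fell at 12 h. For each list in this paragraph, the shares over all tested genes were 24.1% higher and 34.9% lower at 1 h. At 12 h they were 41.1% higher and 40.6% lower. As 59.0% of all tested genes passed at 1 h and 81.7% at 12 h, passing is not particular to these lists. Elk3 fell at 1 h by 0.36 (adjusted p = 0.00017) and Srf rose by 0.12 (adjusted p = 0.0164), a call that was lost with untreated library 3 left out (adjusted p = 0.066) and with 1 h library 1 left out (adjusted p = 0.0696). At 12 h Elk1 rose by 0.59 (adjusted p = 2.86e-08), and Elk4 (-0.54, adjusted p = 1.45e-07), Elk3 (-0.38, adjusted p = 3.9e-05) and Srf (-0.20, adjusted p = 0.000227) fell. IER5 acts on HSF1, whose own gene was not among those listed. Of 5 tested heat shock genes, 3 rose at 1 h and 2 did not pass. Those that rose were Dnajb1 (0.35, adjusted p = 7.18e-06), Bag3 (0.26, adjusted p = 0.000225) and Hspa8 (0.17, adjusted p = 0.001). The 1 h call of Hspa8 was lost under quantile normalization (0.08, adjusted p = 0.19). At 12 h 3 rose, among them Bag3 (0.26) and Hspa8 (0.16), but under quantile normalization 1 rose and 2 fell. Of 8 tested PP2A genes 3 rose at 1 h and none fell, although Ppp2r5b, a B56 subunit gene, passed as lower without untreated library 2 (-0.28) or 1 h library 3 (-0.27). At 12 h 5 rose and 1 fell, with 2 that rose under quantile normalization. Ppp2r2a, a B55 subunit gene, rose by 0.26 after 1 h (adjusted p = 2.33e-05) and by 0.33 after 12 h (adjusted p = 6.05e-07). Ppp2r5d, of the B56 type, fell by 0.29 at 12 h (adjusted p = 6.36e-06).

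Set beside 19 other tested immediate early genes, Klf6, Ier2, Ier3 and Ier5 went with the majority and Klf2 and Ier5l against it. At 1 h 18 of the 19 rose and 1, Fos, fell, against 24.1% higher and 34.9% lower over all tested genes. The median log2 difference was 1.77. At 12 h 14 rose and 3 fell, against 41.1% and 40.6% over all tested genes, and the median was 0.72. With no filter on level, 21 rose and 2 fell at 1 h, and 14 rose and 6 fell at 12 h. Relative to 1 h, 16 of the 19 fell at 12 h and 2 rose, against 43.6% lower and 41.9% higher over all tested genes. The median was -1.31 against 0.01 over all tested genes. The largest were Plk2, a stress-responsive kinase, with 3.11 at 1 h and 1.55 at 12 h, Nr4a1, a nuclear receptor gene, with 2.88 and -1.20, Maff with 2.64 and 1.33, and Junb with 2.53 and 0.91. The call for Fos at 1 h was absent under quantile normalization and without untreated library 3 or 1 h library 1; Fos is named after its value was seen. Many of these genes were known from earlier results of the same libraries to respond, so their counts are no independent evidence of direction.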

How the data were processed

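RNA was sequenced from BV2 cells in 9 libraries, 3 per group; per the labels' protocols, TRIzol was used to extract the RNA and a stranded Illumina TruSeq kit to prepare it. The authors deposited FPKM values, scaled to transcript length and library size, for 6462 genes. The submitters' processing notes name HISAT2, HTSeq, Cufflinks, DESeq and Trimmomatic, with no version or role, and GRCh38, a human build, although the gene symbols are those of mouse. The authors also deposited a p-value, a q-value, a rank and a flag (the last 2 read as scores) from a test that is not stated; as the highest q-value is 0.0999, the listed genes were not a full transcriptome, and adjusted p-values cover only these genes. These deposited columns were not used further.

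Values were compared as log2(FPKM + 1), a pseudocount of 1. Genes with a mean of at least 1 FPKM over the 9 libraries, 5643 in number, were compared in R 4.3.3 by a limma 3.58.1 fit (1 mean per group, eBayes with trend), with Benjamini-Hochberg adjustment over all of them and a threshold of 0.05 (two-sided); 819 genes were left out. The fit was tested on simulated data. The labels do not say that libraries came from separate cultures, so p-values reflect the spread among these 9 libraries, which may be technical. The 6 genes and the lists were chosen with earlier results of these data known. As the directions that chose the 6 genes hold at both times against untreated cells, p-values for them are given only for 12 h against 1 h, which shares libraries with both other comparisons. Named genes are the 6 genes, the 3 nearest in course to each (1 is not reported here), and for each list all tested genes if at most 5, otherwise the 4 with the largest difference from untreated cells. Alternatives were other pseudocounts, filters and scalings, eBayes without trend, a block for the library number, leaving out each library, and fits without the group not compared. Upstream sequences came from RefSeq (GRCm38.p6), found for 5 of 6 genes, and transcripts from GENCODE M21. Patterns were searched on both strands.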

Additional observations from a re-analysis of the deposited data

How the results depend on the processing

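The comparison of 12 h with 1 h kept its direction and its call for all 6 genes under every alternative run, with adjusted p from 0.000137 to 0.00555 for Klf2, the weakest; with a mean FPKM of at least 5 Klf2 was not fitted. Against untreated cells all 6 kept their direction. With a pseudocount of 0.1 the differences at 1 h were -0.83 for Klf2, 1.73 for Klf6 and -2.74 for Ier5l, and at 12 h -1.44 for Klf2 and -1.28 for Ier5l; with 0.5 they were -2.48 for Ier5l at 1 h and -1.18 for Klf2 at 12 h. Under quantile normalization Klf6 was at 1.65 at 1 h, and at 12 h Klf2 was at -0.78, Klf6 at 0.13, Ier2 at 0.35 and Ier3 at 1.88. Quantile normalization also turned Ppp2ca at 1 h (0.00), Hsp90aa1 (-0.05), Hspa8 (-0.12), Hspd1 (-0.16) and Sp4 (0.15) at 12 h against untreated cells, and Hsp90aa1 at 12 h against 1 h (-0.01). The cause of these changes was not tested. Of 2709 values of the other named genes under the alternatives, 2672 kept direction and call, 19 lost a call, 12 gained a call and 6 turned.

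Counts of called genes over the whole table stayed within 1.5 times under all alternatives run. Of 972 counts within the gene lists, 46 moved further than that; with a mean FPKM of at least 5, which leaves fewer genes tested, the KLF genes lower at 1 h (Klf2 counted in) numbered 1 in place of 4 and the SP genes higher at 1 h 1 in place of 3. Library numbers are shared between groups. Same-numbered libraries had residual correlations of -0.067 to 0.128, against -0.146 to 0.138 for differently numbered ones, so no effect of a shared number was visible. Whether same-numbered libraries share a culture is unknown, and these correlations cannot show it. With the replicate block Klf2 was at -0.37 and Ier5l at 1.10 between 12 h and 1 h, and no call of the 6 genes changed. The unknown exact depth limits Klf2 and, at 1 h, Ier5l most.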
